A study of Mus musculus with 4 samples.

Results

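The genes described here encode parts of the machinery that displays peptides on major histocompatibility complex (MHC) molecules of both classes: H2-Eb1, H2-Aa, H2-Ab1, Cd74 and Ctss for class II, and B2m, H2-D1, H2-K1 and Tap1 for class I. The members were every probe set of the array whose platform symbol is 1 of these 9 genes, which gave 27 of 22690 probe sets; they stand for 9 of 12393 genes with a probe set of their own. They were measured in left ventricle on 4 arrays, 1 per group. The IL-18 null banded array carried RNA pooled from 6 IL-18 null mice on a C57BL/6 background, 1 week after transaortic constriction (banding), a narrowing of the aorta that overloads the ventricle with pressure. The IL-18 null sham array carried RNA from 5 sham-operated IL-18 knockout mice. The wild-type banded and wild-type sham arrays carried RNA of wild-type mice, for which strain, age, banding time and pool size were not given in the labels; the series design gives pools of 5 to 6 per group. The series asks how IL-18 bears on expression in the ventricle enlarged by pressure load. Each group is a single pooled array, so differences between arrays carry no error and were not tested.

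MHC class I molecules are a heavy chain, here H2-K1 or H2-D1, bound to beta-2-microglobulin (B2m). They are made by nearly all nucleated cells and show peptides of cytosolic proteins, which the TAP transporter, with Tap1 as a subunit, brings into the endoplasmic reticulum. Class II molecules are pairs of an alpha and a beta chain, H2-Aa with H2-Ab1, or an H2-E pair with H2-Eb1 as the beta chain. They are made mainly by macrophages, dendritic cells and B cells, together with the invariant chain Cd74, which occupies the groove until proteases such as cathepsin S (Ctss) trim it. Ciita, the class II transactivator, controls class II genes and Cd74, and interferon gamma induces both classes. In the heart, resident macrophages and dendritic cells are the main class II cells.

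Promoters of these genes share short elements, and those of 6 members are shown because the results below turn on these genes. Promoter windows from RefSeq (GRCm38.p6) were found for 7 of the 9 genes; H2-Ab1 and Cd74 had no entry. Each sequence is the 250 bases before the gene's start, 5′ to 3′ on the strand of the gene. Capitals mark matches, on either strand, to AANNGAAA (the letters recognised by interferon regulatory factors), GGGA followed by any 4 bases and CC (kappa-B-like), CTGATTGG (the Y box with its inverted CCAAT) and TGACG (a CRE half-site, as in the X2 box); neighbouring or overlapping matches run together.
H2-Eb1, chr17:34305617-34305866, plus strand: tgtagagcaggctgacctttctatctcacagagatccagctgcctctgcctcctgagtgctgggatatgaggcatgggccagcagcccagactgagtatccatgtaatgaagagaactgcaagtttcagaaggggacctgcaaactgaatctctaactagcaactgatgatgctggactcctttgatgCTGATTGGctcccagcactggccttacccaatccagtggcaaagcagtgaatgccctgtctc
H2-Aa, chr17:34287824-34288073, minus strand: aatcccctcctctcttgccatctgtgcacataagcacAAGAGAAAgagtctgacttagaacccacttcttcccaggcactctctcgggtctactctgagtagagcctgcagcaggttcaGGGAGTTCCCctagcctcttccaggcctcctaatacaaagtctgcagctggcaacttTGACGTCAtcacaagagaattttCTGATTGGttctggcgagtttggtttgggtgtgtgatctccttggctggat
Ctss, chr3:95526536-95526785, plus strand: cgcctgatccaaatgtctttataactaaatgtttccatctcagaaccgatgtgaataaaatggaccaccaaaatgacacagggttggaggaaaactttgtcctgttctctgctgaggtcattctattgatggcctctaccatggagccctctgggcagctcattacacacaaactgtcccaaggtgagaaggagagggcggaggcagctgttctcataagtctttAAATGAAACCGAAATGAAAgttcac
H2-D1, chr17:35262844-35263093, plus strand: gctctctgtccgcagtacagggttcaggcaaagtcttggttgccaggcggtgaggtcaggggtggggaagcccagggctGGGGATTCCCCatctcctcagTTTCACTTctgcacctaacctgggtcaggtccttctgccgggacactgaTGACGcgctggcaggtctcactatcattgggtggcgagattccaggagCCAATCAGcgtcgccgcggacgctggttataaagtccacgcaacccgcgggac
H2-K1, chr17:34000348-34000597, minus strand: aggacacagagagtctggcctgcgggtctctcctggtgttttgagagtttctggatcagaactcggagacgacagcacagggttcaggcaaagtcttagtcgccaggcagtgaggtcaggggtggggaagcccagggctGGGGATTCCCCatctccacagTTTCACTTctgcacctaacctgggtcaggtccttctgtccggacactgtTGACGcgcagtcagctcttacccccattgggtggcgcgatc
B2m, chr2:122147437-122147686, plus strand: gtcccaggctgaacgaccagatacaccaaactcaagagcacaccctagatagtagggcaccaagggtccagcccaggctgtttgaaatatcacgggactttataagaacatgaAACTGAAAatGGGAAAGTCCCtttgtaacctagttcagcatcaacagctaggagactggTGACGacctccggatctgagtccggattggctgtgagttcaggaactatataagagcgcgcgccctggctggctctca
The Y box letters were found in 4 of the 7 windows (H2-Eb1, H2-Aa, H2-D1 and Tap1), against 3.83% of 32851 windows of the same length. In H2-Aa they began 51 bases before the start and in H2-Eb1 62 bases before it, and in H2-Aa a CRE half-site lay upstream of it on each strand. The interferon regulatory factor letters were in 5 of the 7 windows, against 21.3% of all windows, with 3 overlapping matches in Ctss. Kappa-B-like letters were in 4 of the 7, against 17.6%, and H2-D1 and H2-K1 held the same stretch. CRE half-sites were in 5 of the 7, against 17.8%. H2-K1 had 2 windows listed, and the first is shown. A match is a description of the letters and not a measured binding site.

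The deposited values are intensities on a linear scale, and a floor of 64 units (log2 6) was taken as the lower limit of measurement. Of the 27 probe sets, 15 reached the floor on at least 1 array and 9 on all 4; the other 12 stayed at or below 26.9 units everywhere. All 4 probe sets of Tap1 were among these 12, between 3.4 and 9.4 units, so Tap1 gave no measurement and 8 of the 9 genes did. The class II genes had 5 measured probe sets, 1 per gene, and the class I genes 10. Of the 15, 12 are marked in their names as able to bind more than 1 transcript. Those of Cd74 and B2m carry the mark _a_, for several transcripts of the same gene. Those marked _s_ or _x_ can bind transcripts of other genes. They include 7 of the 8 for H2-D1 and H2-K1, similar genes of a large family, so the signals of these genes cannot be fully told apart. A further 3 probe sets list a member beside other genes and were not counted; 1 of them, for H2-K1 and H2-D1 together, reached the floor, with 378.4 units in IL-18 null banded, 287.4 in IL-18 null sham, 461.8 in wild-type banded and 191.2 in wild-type sham.

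The arrays were not alike in RNA signal along transcripts. The 3′ minus middle difference of log2 intensity over the control transcripts Gapdh, Actb and dap averaged 3.01 ± 1.47 in IL-18 null banded, 3.37 ± 1.14 in IL-18 null sham, 0.72 ± 1.14 in wild-type banded and 4.74 ± 0.14 in wild-type sham (SD, n = 3 transcripts). Of the 27 probe sets, 15 were at or above the floor in IL-18 null banded, 14 in IL-18 null sham, 14 in wild-type banded and 9 in wild-type sham. Wild-type sham also had the lowest value of 9 of the 15 measured probe sets, while IL-18 null banded had the highest of 11. In 3′ minus middle difference the arrays with the lowest and the highest mean were both wild type: wild-type banded lay furthest from the other 3, and wild-type sham was the nearer of the pair to the IL-18 null arrays. For Actb it was 4.57 in IL-18 null banded, 4.69 in IL-18 null sham, 2.01 in wild-type banded and 4.88 in wild-type sham. The part of the 3′ signal in the differences between arrays was not tested.

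Among class II genes the IL-18 null banded array was the highest of the 4 for each of the 5. Ctss, the protease of the class II pathway, had 2453 units in IL-18 null banded, 516.4 in IL-18 null sham, 759.5 in wild-type banded and 963.5 in wild-type sham. It thus stood apart on 1 array, with the other 3 within a factor of 2 of each other. The alpha chain gene H2-Aa had 1741 units in IL-18 null banded, 1003 in IL-18 null sham, 832.7 in wild-type banded and 1423 in wild-type sham. Its partner H2-Ab1 had 287.9 units in IL-18 null banded, 197.6 in IL-18 null sham, 125.0 in wild-type banded and 182.8 in wild-type sham. These 3 genes had their higher value in banded hearts in IL-18 null and in sham hearts in wild type.

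The other class II genes were ordered differently, with wild-type sham at the bottom. The beta chain gene H2-Eb1 had 532.0 units in IL-18 null banded, 225.6 in IL-18 null sham, 308.5 in wild-type banded and 108.4 in wild-type sham. Cd74, the invariant chain, had 1219 units in IL-18 null banded, 537.3 in IL-18 null sham, 1034 in wild-type banded and 58.8 in wild-type sham, the last below the floor. For both genes each banded array was above the sham array of its genotype. The further probe sets of H2-Aa (1 of its 2) and H2-Ab1 (2 of its 3) were below the floor on every array.

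**Figure D1:**
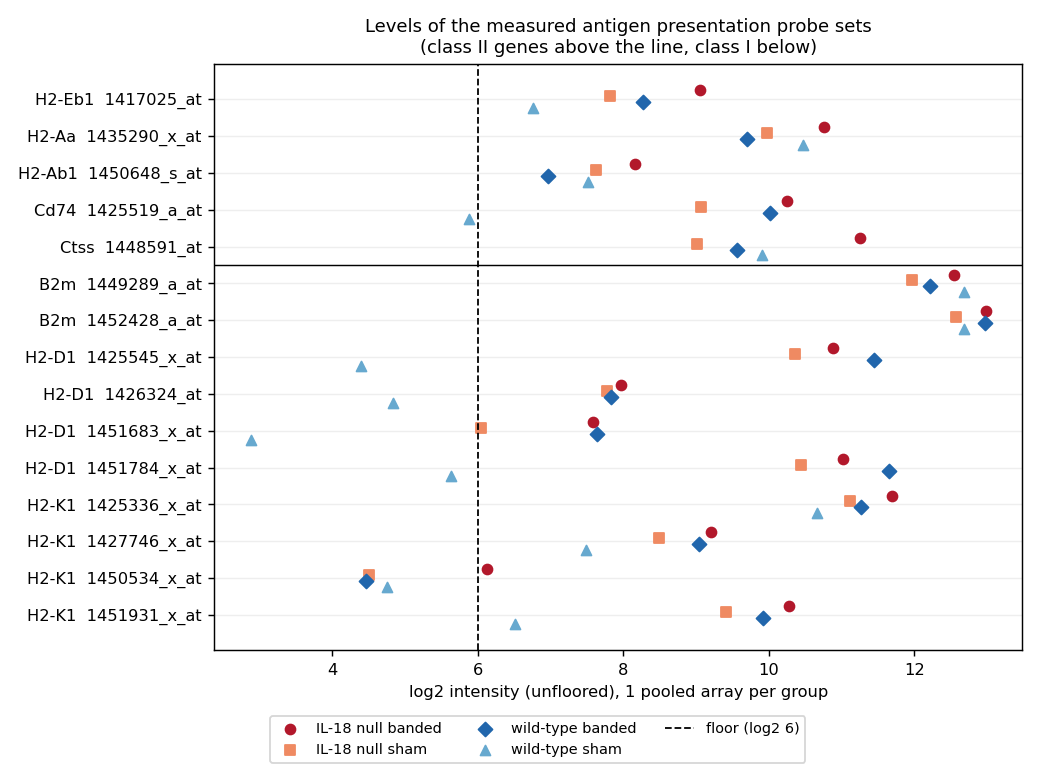
Log2 intensity (horizontal axis, unfloored) of the 15 measured probe sets on each of the 4 arrays, 1 point per pooled array, with the floor as a dashed line. IL-18 null banded is the rightmost point for all 5 class II genes, and wild-type sham is below the floor for Cd74 and for the 4 H2-D1 probe sets.

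B2m, which every class I molecule needs, was the brightest member and the most even. Its first probe set (1449289_a_at) had 6000 units in IL-18 null banded, 4002 in IL-18 null sham, 4777 in wild-type banded and 6584 in wild-type sham. The other (1452428_a_at) had 8088 units in IL-18 null banded, 6092 in IL-18 null sham, 8008 in wild-type banded and 6554 in wild-type sham. The probe sets placed the wild-type arrays in opposite order, and neither differed by 2-fold in any pair of arrays compared.

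H2-D1 had 4 measured probe sets, and all 4 were below the floor in wild-type sham only. Probe set 1451784_x_at had 2079 units in IL-18 null banded, 1394 in IL-18 null sham, 3211 in wild-type banded and 49.7 in wild-type sham. Probe set 1425545_x_at had 1884 units in IL-18 null banded, 1316 in IL-18 null sham, 2795 in wild-type banded and 21.0 in wild-type sham. Both were highest in wild-type banded, as was 1451683_x_at by a small margin. Probe set 1426324_at, the measured one not marked as shared, had 250 units in IL-18 null banded, 219.9 in IL-18 null sham, 228.5 in wild-type banded and 28.6 in wild-type sham. Probe set 1451683_x_at had 191.5 units in IL-18 null banded, 66.0 in IL-18 null sham, 199.6 in wild-type banded and 7.4 in wild-type sham. The other 5 H2-D1 probe sets were below the floor everywhere.

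H2-K1 was lowest in wild-type sham for 3 of its 4 probe sets, by very different amounts. Probe set 1425336_x_at had 3311 units in IL-18 null banded, 2216 in IL-18 null sham, 2476 in wild-type banded and 1620 in wild-type sham. Probe set 1451931_x_at had 1238 units in IL-18 null banded, 678.9 in IL-18 null sham, 970.1 in wild-type banded and 91.6 in wild-type sham. Probe set 1427746_x_at lay between them in its spread, with 590.3 units in IL-18 null banded, 359.3 in IL-18 null sham, 529.3 in wild-type banded and 179.9 in wild-type sham. The last, 1450534_x_at, had 69.8 units in IL-18 null banded, 22.8 in IL-18 null sham, 22.1 in wild-type banded and 26.9 in wild-type sham, below the floor on all but the first. The same gene could thus differ little or greatly from wild-type sham depending on the probe set.

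In IL-18 null hearts, banding went with higher signal of both classes, and more so for class II. Values below the floor were set to it before differences were taken, and a difference of at least 1 on the log2 scale (2-fold) was counted. Ctss was higher by 2.25 in banded than in sham, H2-Eb1 by 1.24 and Cd74 by 1.18, while H2-Aa was at 0.80 and H2-Ab1 at 0.54. Among class I genes the H2-D1 probe set 1451683_x_at was higher by 1.54; the other 3 were at 0.19 to 0.58, H2-K1 at 0.13 to 0.87 (the first a bound) and B2m at 0.41 and 0.58. All 15 measured probe sets were higher in banded, as they were after quantile normalization and cyclic loess, against 58.9% of 6743 named probe sets (those with 1 gene symbol). Of these 15, H2-K1 1450534_x_at reached the floor only in IL-18 null banded and so could only count as higher. The members past 2-fold numbered 4 higher and 0 lower, where 6.64% of named probe sets were higher and 4.2% lower (448 and 283, against 353 and 340 after quantile normalization and 373 and 344 with cyclic loess). The median difference was 0.58 for the 15 measured probe sets, 1.18 for class II and 0.58 for class I, against 0.06 for all. Of the 9 at or above the floor on all 4 arrays, 9 were higher and 2 past 2-fold (median 0.72), where the 5378 named probe sets with the same property had a median of 0.07. In bulk ventricle RNA, a change in the number of cells that make these transcripts and a change in transcript per cell cannot be told apart.

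In wild-type hearts the class II genes split and the heavy chain genes differed widely. Cd74 was higher by at least 4.01 in banded than in sham and H2-Eb1 by 1.51, while Ctss was at -0.34, H2-Ab1 at -0.55 and H2-Aa at -0.77. The H2-D1 probe sets were higher by at least 5.65, at least 5.45, at least 1.84 and at least 1.64. H2-K1 was higher by 3.40 at 1451931_x_at, by 1.56 at 1427746_x_at and by 0.61 at 1425336_x_at, and B2m was at -0.46 and 0.29. The members past 2-fold numbered 8 higher and 0 lower of 14, where 24.9% of 7200 named probe sets were higher and 11.5% lower; after quantile normalization they were 7 higher and 2 lower. That scaling moved the median of all named probe sets from -0.02 to -0.34, and cyclic loess moved it to 0.16; the named probe sets past 2-fold were 1792 higher and 828 lower as deposited, 1439 and 1674 after quantile normalization and 2029 and 544 with cyclic loess. Only 3 of the 9 members measured on all 4 arrays were past 2-fold, with 5 above 0 and 4 below it (median 0.29, against -0.14 for all such probe sets). Of the 14 members, 10 were above 0, where 49.4% of all were. In 5 of the 8 past 2-fold, Cd74 and the 4 for H2-D1, the wild-type sham value was below the floor. These 5 could thus only count as higher.

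**Figure D2:**
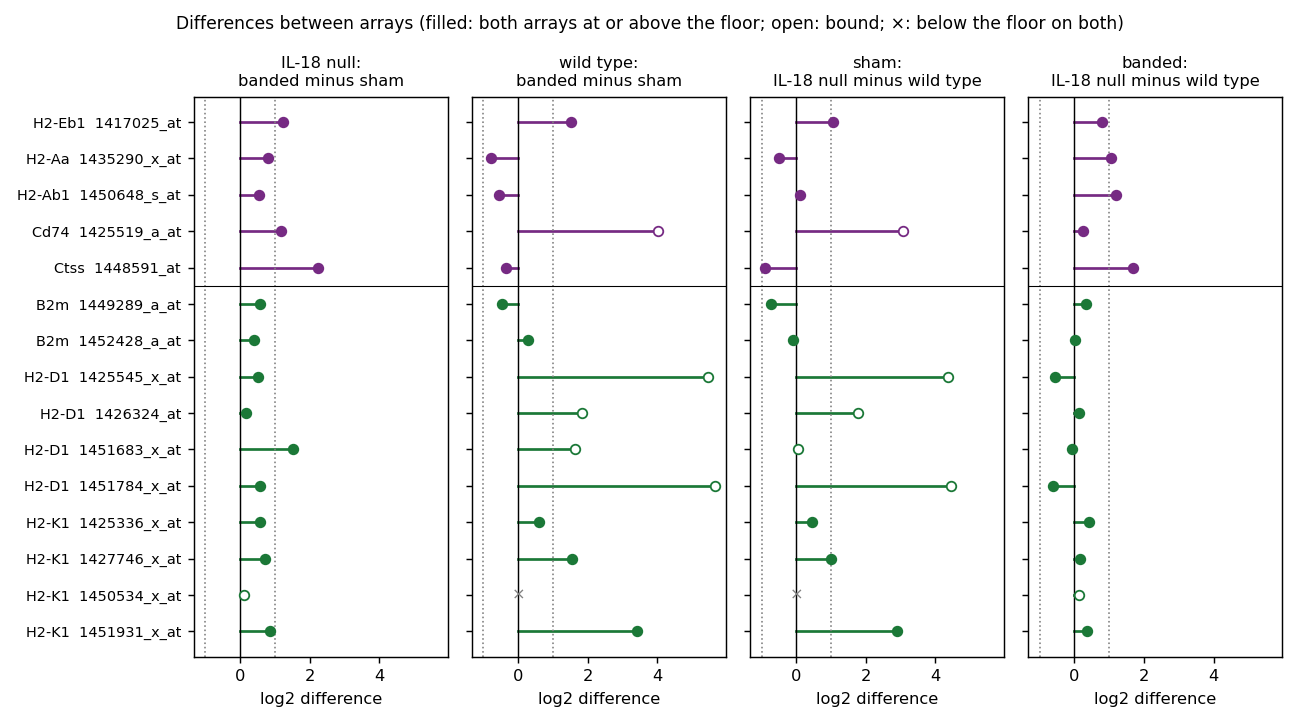
Log2 difference (horizontal axis) of each measured probe set in the 4 comparisons, class II in purple above the line and class I in green below it; open circles are bounds, dotted lines mark 2-fold and a cross marks a probe set below the floor on both arrays. All points lie right of 0 for banding in IL-18 null, and class II points lie on both sides of 0 for banding in wild type.

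Without banding, the comparison of genotypes gave nearly the same split, and it shares the wild-type sham array with the one above. Between IL-18 null sham and wild-type sham, Cd74 was higher by at least 3.07 and H2-Eb1 by 1.06, while H2-Ab1 was at 0.11 (-0.20 after quantile normalization), H2-Aa at -0.51 and Ctss at -0.90. Among class I genes, 3 of the 4 H2-D1 probe sets (at least 1.78, 4.36 and 4.44) and H2-K1 1451931_x_at (2.89) were past 2-fold, and B2m was at -0.72 and -0.11. That is 6 higher and 0 lower of 14, where 18.4% of 6797 named probe sets were higher and 6.02% lower. Above 0 were 10 of the 14, against 46.3% of all. Cd74 and the 4 H2-D1 probe sets were below the floor in wild-type sham, so they could only count as higher. After quantile normalization the members were 5 higher and 1 lower, and the named probe sets 1069 higher and 855 lower, against 1249 and 409 as deposited. Of the 9 members measured on all 4 arrays, 5 were above 0 and 4 below it. The mean 3′ minus middle values were 3.37 (IL-18 null sham) and 4.74 (wild-type sham), and the genotype and the array cannot be told apart.

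Between the banded hearts, where neither array is wild-type sham, all 5 class II probe sets had their higher value in IL-18 null, 3 of them past 2-fold, while 7 of the 10 for class I did, none past 2-fold. Ctss was higher by 1.69, H2-Ab1 by 1.20 and H2-Aa by 1.06 in IL-18 null banded than in wild-type banded; H2-Eb1 was at 0.79 and Cd74 at 0.24. All 5 class II probe sets stayed above 0 after quantile normalization and cyclic loess, though with cyclic loess H2-Aa was at 0.88, under 2-fold, and Cd74 at 0.06. None of the 10 class I probe sets was past 2-fold either way. They lay between -0.63 and 0.42; the 4 for H2-K1 (0.13 to 0.42), both for B2m and H2-D1 1426324_at were above 0, and the other 3 for H2-D1 were below it, and their median of 0.13 turned to -0.02 with cyclic loess. The members past 2-fold numbered 3 higher and 0 lower of 15, where 5.11% of 7039 named probe sets were higher and 10.9% lower; 12 of the 15 were above 0, H2-K1 1450534_x_at again only because of the floor, against 55.4% of all. With cyclic loess the named probe sets were 246 higher and 929 lower, against 360 and 768 as deposited. The median was 1.06 for class II and 0.06 for all named probe sets. These arrays had 3′ minus middle values of 3.01 (IL-18 null) and 0.72 (wild type), and the part of that difference in the result was not tested.

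The banding response of IL-18 null minus that of wild type combines all 4 arrays. It was positive by at least 1 for Ctss (2.59), H2-Aa (1.57), H2-Ab1 (1.09) and B2m 1449289_a_at (1.05). It was negative by at least 1 for Cd74 (-2.83), for 3 H2-D1 probe sets (-5.07, -4.93 and -1.65) and for H2-K1 1451931_x_at (-2.54). All 5 negative ones had their lowest value in wild-type sham, and those of Cd74 and H2-D1 rest on a value set to the floor there. H2-Eb1 was at -0.27, with like differences in both genotypes. Of all 7366 named probe sets, 18.8% were positive and 24.9% negative by at least 1, against 4 and 5 of the 15 members. The named probe sets were 1388 positive and 1832 negative as deposited, 1959 and 1577 after quantile normalization and 934 and 2129 with cyclic loess.

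**Figure D3:**
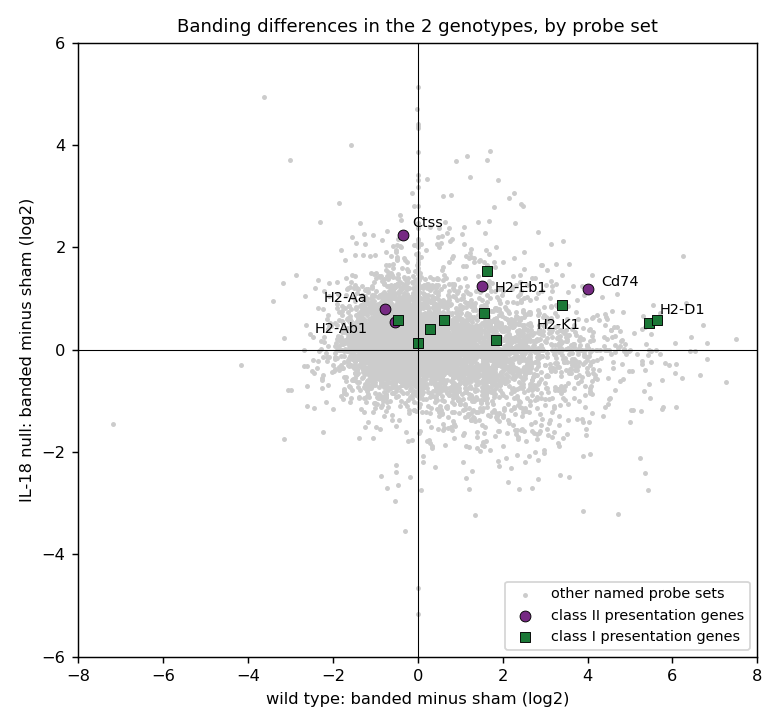
Banding difference in IL-18 null (vertical axis, log2) against that in wild type (horizontal axis, log2) for 7366 named probe sets, with a pair below the floor on both arrays drawn at 0; class II members are purple circles and class I members green squares. The members all lie at or above 0.13 on the vertical axis and spread from -0.77 to 5.65 on the horizontal axis.

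The limma fit that treats surgery and genotype as additive terms over the 4 arrays, with 1 residual degree of freedom per probe set, called 0 of the 15 members for banding and 0 for genotype at an adjusted p of 0.05. It called 0 of 7366 named probe sets (0%) for either term, with 106 at an unadjusted p under 0.05 for banding and 14 for genotype. Of the members, Cd74 (banding term 2.66 ± 0.91 SE, unadjusted p = 0.034, limma) and H2-D1 1451683_x_at (3.15 ± 1.14 SE, unadjusted p = 0.041, limma) were the 2 under 0.05 for banding, both with an adjusted p of 1.0. These terms include the values below the floor in wild-type sham as measured. The fit assumes that banding acts alike in both genotypes and takes the genotypes as replicates of surgery. Its SEs and p-values therefore do not measure the spread among mice or arrays of a group.

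Other genes of the pathway were mostly below the floor. Of 69 genes listed, 51 had a probe set of their own and 22 were measured, each by its brightest probe set. The 22 include H2-Ke6, which does not encode a presentation molecule. It was within 2-fold in every comparison. With banding in IL-18 null, 3 of 22 passed 2-fold upward and 0 downward, where 6.98% of genes were higher and 2.53% lower (median 0.29, against 0.08 for all genes). They were Irf1, an interferon-induced transcription factor of class I genes (1.57), Psmb10, an immunoproteasome subunit (1.15, a bound), and Calr, a chaperone of class I loading (1.09). With banding in wild type 10 of 21 were higher and 2 lower, against 21.7% and 12.8% of genes. Between sham hearts 8 of 20 were higher and 2 lower in IL-18 null, against 16.3% and 6.29%, and between banded hearts 1 of 21 was higher and 1 lower, against 5.7% and 7.74%.

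Calr, Pdia3 and Tapbp, genes of peptide loading, resembled H2-D1 in standing far lower in wild-type sham. Their list of class I loading and proteasome genes had 4 of 6 measured genes past 2-fold upward and 0 downward with banding in wild type. Of all genes, 21.7% were higher and 12.8% lower. The trait was not particular to this pathway: the cardiomyocyte gene Mybpc3 had 16556 units in wild-type banded and 948.5 in wild-type sham. The chaperone Calr had 4241 units in IL-18 null banded, 1992 in IL-18 null sham, 4122 in wild-type banded and 159.0 in wild-type sham. Pdia3, a disulfide isomerase of the loading complex, had 785.2 units in IL-18 null banded, 618.4 in IL-18 null sham, 1113 in wild-type banded and 8.6 in wild-type sham. Tapbp, which bridges class I to TAP, had 274.6 units in IL-18 null banded, 230.2 in IL-18 null sham, 383.6 in wild-type banded and 25.1 in wild-type sham. Canx, the chaperone that receives new heavy chains, was even, with 2706 units in IL-18 null banded, 2986 in IL-18 null sham, 2244 in wild-type banded and 2960 in wild-type sham. Between banded hearts, IL-18 null against wild type, Calr was at 0.04, Pdia3 at -0.50, Tapbp at -0.48 and Canx at 0.27, all within 2-fold.

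The cathepsin genes listed beside the members for the class II route differed less with banding in IL-18 null than the member Ctss (2.25). Ctsb (0.45), Ctsd (0.47), Ctsh (0.35) and Ctsl (0.22) were within 2-fold there. Ifi30, a thiol reductase of antigen processing, had 103.7 units in IL-18 null banded, 35.6 in IL-18 null sham, 44.4 in wild-type banded and 39.6 in wild-type sham, above the floor on the first only. Ctsd was higher in wild-type banded than in wild-type sham by at least 6.73. Ciita was below the floor on every array, at 3.9 to 4.6 units, as were H2-DMa, H2-DMb2, H2-Oa, Rfx5, Rfxank and Rfxap. H2-Ea, the alpha partner of H2-Eb1, which C57BL/6 mice do not express, had 50.5 units in IL-18 null banded, 67.7 in IL-18 null sham, 50.8 in wild-type banded and 107.2 in wild-type sham, above the floor in both sham arrays only.

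None of the 6 costimulation genes on the array was measured. Of the interferon gamma genes, Ifng itself was below the floor on every array (6.3 to 9.4 units), and the receptor genes Ifngr1 and Ifngr2 were within 0.18 of each other in every pair of arrays of the same genotype. Irf1 had 857.5 units in IL-18 null banded, 288.4 in IL-18 null sham, 669.5 in wild-type banded and 117.8 in wild-type sham, so both banded arrays were above both sham arrays. Jak2, a kinase of the receptor, had 214.3 units in IL-18 null banded, 115.7 in IL-18 null sham, 61.6 in wild-type banded and 238.1 in wild-type sham. Irf2, which antagonises Irf1, was at or near the floor in every group but wild-type sham, where it had 232.6 units. The list of other class I and class I-like genes had 3 of 11 measured: H2-Ke6, Cd1d1 and Fcgrt. Of these, H2-Ke6 does not encode a class I-like molecule. Fcgrt, the neonatal Fc receptor chain that also pairs with B2m, had 436.9 units in IL-18 null banded, 350.1 in IL-18 null sham, 542.6 in wild-type banded and 6.9 in wild-type sham.

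Markers of the cells that carry class II molecules moved with parts of the pattern. Ptprc, the pan-leukocyte antigen CD45, had 199.4 units in IL-18 null banded, 85.9 in IL-18 null sham, 56.5 in wild-type banded and 182.7 in wild-type sham, the order also seen for H2-Aa. The macrophage list had 10 of 14 genes measured, and their summed intensity over the 14 was 9434 in IL-18 null banded, 4224 in IL-18 null sham, 6785 in wild-type banded and 4396 in wild-type sham. Itgam, Fcgr1, Marco and Cd163 were below the floor on every array. With banding, 5 of 9 measured macrophage genes passed 2-fold upward and 0 downward for IL-18 null (median 1.06), where 6.98% of all genes were higher and 2.53% lower. For wild type 5 of 9 passed upward and 0 downward (median 1.10), where 21.7% of all genes were higher and 12.8% lower. C1qb (2.06), Mpeg1 (1.91), Fcgr3 (1.83), C1qc (1.46) and Csf1r (1.06) were the 5 in IL-18 null. The 5 in wild type were C1qc (3.40, a bound), C1qa (2.52, a bound), Lyz2 (1.62), Fcgr3 (1.14, a bound) and C1qb (1.10). The other 4, Csf1r (-0.67), Mrc1 (-0.67), Mpeg1 (-0.51) and Adgre1 (-0.30), were below 0 there, so the macrophage genes were split in wild type as the class II genes were.

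Between banded hearts Ptprc was higher by at least 1.64 and Mpeg1 by 2.53 in IL-18 null, beside Ctss, H2-Ab1 and H2-Aa. The macrophage list had 2 of 10 higher and 1 lower, where 5.7% of all genes were higher and 7.74% lower, with C1qa lower by 2.52 as a bound. The neutrophil list had 2 of 3 measured genes past 2-fold upward and 0 downward, against the same shares of all genes. They were S100a9 and S100a8, higher by at least 3.48 and 2.07. The other measured gene, Cxcr2, was at 0.11, and Csf3r, Mpo and Elane were below the floor on every array. The summed intensity over the 6 neutrophil genes was 1244 in IL-18 null banded, 806.1 in IL-18 null sham, 313.3 in wild-type banded and 1314 in wild-type sham. None of the 7 dendritic cell and none of the 7 B cell markers on the array reached the floor on any array (summed intensities 79.2 to 89.6 and 42.1 to 68.5 over the 4 arrays). Of 9 T and NK cell markers, Cd4 and Cd3e did (summed intensities 193.6 to 346.6). The part of cell number in the class II differences was not tested. The labelled tissue was borne out by the cardiomyocyte list, with 8 of 8 genes at or above the floor on every array and a summed intensity of 162164 in IL-18 null banded, 168520 in IL-18 null sham, 182924 in wild-type banded and 137674 in wild-type sham.

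Endothelial cells carry class I molecules, and 4 of their 8 markers (Pecam1, Tie1, Egfl7 and Esam) were highest in wild-type banded, 3 (Cdh5, Kdr and Emcn) in IL-18 null sham and Tek in wild-type sham. Their summed intensity was 3155 in IL-18 null banded, 4043 in IL-18 null sham, 5155 in wild-type banded and 2778 in wild-type sham. Fibroblast markers had 3 of 5 measured genes past 2-fold upward and 0 downward with banding in each genotype. Of all genes, 6.98% were higher and 2.53% lower in IL-18 null, and 21.7% and 12.8% in wild type. The fibroblast summed intensity was 13673 in IL-18 null banded, 8546 in IL-18 null sham, 14816 in wild-type banded and 4109 in wild-type sham. The endothelial, fibroblast and cardiomyocyte sums were each highest in wild-type banded and lowest in wild-type sham.

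**Figure D4:**
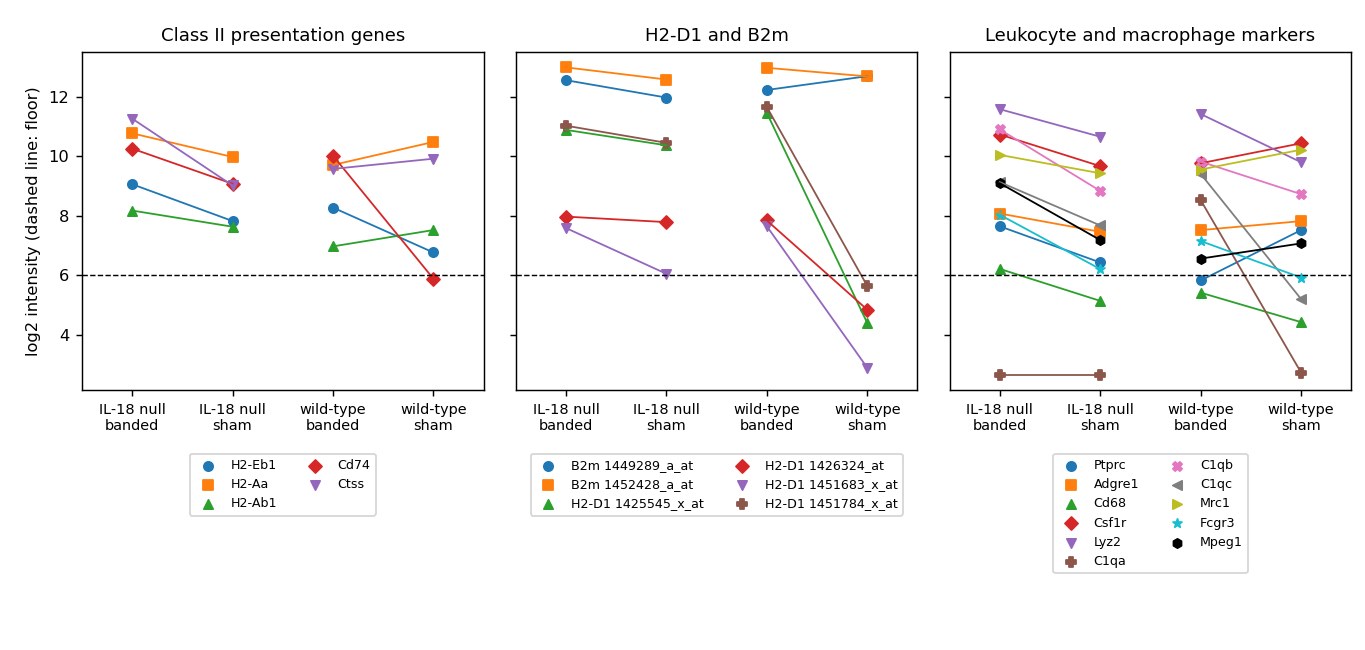
Log2 intensity (vertical axis, unfloored) on the 4 arrays of the class II genes (left), of H2-D1 and B2m probe sets (middle) and of the measured leukocyte and macrophage markers (right); lines join the banded and sham arrays of a genotype and the dashed line is the floor. From banded to sham in wild type, Ptprc, Csf1r, Mrc1, Mpeg1 and Adgre1 slope up, as Ctss, H2-Aa and H2-Ab1 do, while Lyz2, C1qa, C1qb, C1qc and Fcgr3 slope down, as H2-Eb1 and Cd74 do. Cd68 is below the floor on both wild-type arrays.

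The genes nearest to the mean profile of each class over the 4 arrays were sought among 3985 others at or above the floor on all 4, by the Euclidean distance between log2 values centred on each gene's mean. The mean profile of H2-Aa, H2-Ab1, H2-Eb1 and Cd74 was 0.91 in IL-18 null banded, -0.03 in IL-18 null sham, 0.09 in wild-type banded and -0.96 in wild-type sham. Ctss was not part of this mean. The mean hides the split described above: in wild-type sham the centred value was -2.83 for Cd74 and -1.22 for H2-Eb1, against -0.05 for H2-Ab1 and 0.25 for H2-Aa. Nearest to the mean, and not to any single member, were Sparc, a collagen-binding matrix protein (distance 0.19), the arginyl-tRNA synthetase gene Rars (0.25), Pvr (0.29), Tmem176b (0.29) and the lysosomal protease gene Ctsz (0.30). The mean profile of B2m, H2-D1 and H2-K1 was 0.64 in IL-18 null banded, 0.12 in IL-18 null sham, 0.71 in wild-type banded and -1.47 in wild-type sham, where the centred value was -3.78 for H2-D1, -0.52 for H2-K1 and -0.12 for B2m. Nearest to this mean were Rrp1 (0.05), Atp6v0b (0.07), Elob (0.11), Igfbp4 (0.12) and Msn (0.14), none of which presents antigen. With 4 points per gene, a short distance describes these arrays only.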

How the data were processed

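Left ventricle RNA was measured on 4 arrays with biotin label. The deposited values are intensity values per probe set on a linear scale, computed by the authors with GCRMA per the submitters' processing notes; its version is not given in the sources used here, nor is any scaling applied afterwards. Probe sets with 1 gene in the platform annotation (20380 of 22690) were analysed; 691 with several genes and 64 controls were left out. All 9 symbols matched the RefSeq table of GRCm38.p6. Log2 values were floored at 6, and each comparison took the probe sets at or above the floor on 1 or both of its arrays. Pairs of arrays were compared by their log2 difference with no test, counted at 1 or more. The limma fit (lmFit, then eBayes with trend) took log2 values without the floor, with Benjamini-Hochberg adjustment over 7366 probe sets. The fold counts and the fit were tested on simulated data. Genes outside the members were named by rule: up to 4 per list and comparison by size of difference, each by its probe set with the highest mean, with Ciita, H2-Ea and Ptprc always and the 5 nearest profiles of each class. Ifngr2, Adgre1 and the other genes named as below the floor on every array fall outside the rule and were chosen after their values were seen. The members and lists were chosen with earlier results of these data known. Alternatives were other floors, quantile normalization, cyclic loess, a 1.5-fold threshold and other settings of the fit. A further one left out probe sets marked for more than 1 transcript (_s_, _x_ or _a_ in the name), called shared here. The mark _a_ stands for transcripts of the same gene. R 4.3.3, limma 3.58.1, Python 3.11.15, pandas 2.3.3, numpy 2.4.6 and matplotlib 3.10.9 were used. The number of arrays limits the precision.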

Additional observations from a re-analysis of the deposited data

Results flagged for a closer look

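The banding responses of the 2 genotypes had opposite signs and differed by at least 2-fold for 4 member probe sets, all at or above the floor on the 4 arrays. Ctss was at 2.25 in IL-18 null and -0.34 in wild type, a difference of 2.59. H2-Aa was at 0.80 in IL-18 null and -0.77 in wild type, a difference of 1.57. H2-Ab1 was at 0.54 in IL-18 null and -0.55 in wild type, a difference of 1.09. B2m 1449289_a_at was at 0.58 in IL-18 null and -0.46 in wild type, a difference of 1.05. The same held for 31.7% of the 5378 named probe sets at or above the floor on the 4 arrays, and for 18.9% with the positive sign in IL-18 null, as in these 4 of 9 members. Among all 15 measured members it held for the same 4 (26.7%), against 30.4% of 7366 named probe sets. With the positive sign in IL-18 null it held for 15.4% of these 7366. With cyclic loess the differences were 2.32 for Ctss, 1.30 for H2-Aa, 0.81 for H2-Ab1 and 0.81 for this B2m probe set, so the last 2 were under 2-fold. The other B2m probe set was at 0.12, and at -0.12 with cyclic loess. With 1 array per group, these differences between genotypes were not tested.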

How the results depend on the processing

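Of 449 values of single member probe sets under the alternatives, 412 stayed on their side of the fold threshold, 37 crossed it and 0 of those past it changed sign. Leaving out the probe sets marked as shared left 3 measured members (H2-Eb1, Ctss and H2-D1 1426324_at); those past 2-fold then numbered 2 for banding in IL-18 null (4 with all), 2 for banding in wild type (8), 2 between sham hearts (6), 1 between banded hearts (3) and 2 for the difference of responses (9), by construction from fewer probe sets. The probe sets left out include those of Cd74 and B2m, whose mark _a_ stands for several transcripts of the same gene. A 1.5-fold threshold gave 7 for banding in IL-18 null and 5 between banded hearts. The other fold alternatives (floors at log2 5 and 7, no floor, quantile normalization, cyclic loess) kept each count within 1.5 times, from 3 to 5 for banding in IL-18 null, 6 to 9 in wild type, 4 to 7 between sham hearts, 2 to 4 between banded hearts and 8 to 11 for the difference of responses. The limma banding term called 2 members after quantile normalization (H2-D1 1425545_x_at, adjusted p = 0.0028, and 1451784_x_at, adjusted p = 0.021), against 0 as reported. With no filter on low values it called 3, these and H2-D1 1451683_x_at. The wild-type sham values of these probe sets are below the floor. After variance was shared over probe sets, the fit used 7474 degrees of freedom with quantile normalization and 20380 with no filter, against 4.84 as reported. With no filter the term of H2-D1 1425545_x_at was 3.79, as reported, but its SE was 0.74 against 1.61. The calls thus came with more shared degrees of freedom and with no added arrays, and their cause was not tested. Over all probe sets the banding term called 64 after quantile normalization and 245 with no filter, and the genotype term 9 and 92, with 0 members among these. An adjusted p of 0.1, no intensity trend and cyclic loess called 0 members. No paired analysis was possible because each group has 1 array and the labels carry no replicate numbers.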
